A study of Homo sapiens with 6 samples.

Results

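The histone genes measured here are those of the replication-dependent clusters, together with the H1 genes, and a small set of variant genes. They were chosen by gene symbol, as every probe set whose only symbol in the platform annotation starts with H1-, H2AC, H2BC, H3C or H4C (called clustered below) or is H2AX, H2AZ1, H2AZ2, H3-3A, H3-3B, MACROH2A1 or MACROH2A2 (called variants). A probe set is the group of short probes that together give 1 signal for a transcript. The choice gave 77 probe sets of 56 genes, out of 54675 probe sets on the array and 41091 with a single symbol, which stand for 19775 genes. Of these, 58 probe sets of 50 genes were clustered and 19 probe sets of 6 genes were variants, and no single-symbol probe set carried the name H3-3B. No measured value entered the choice, but the family was proposed with results of this same comparison known, so its calls are a description and not independent evidence. By its letters the choice also took in H1-10 and H1-8 on chromosome 3 and H1-7 on chromosome 12, linker histone genes outside the clusters, the antisense RNA H1-10-AS1, and the pseudogenes H1-9P, H2AC5P and H4C10P. H2BC12L is counted as clustered by its symbol alone, and whether it lies in a cluster was not checked.

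The cells were 76N, an established line of mammary epithelial cells of normal human origin kept in DFCI-1 medium. One group received control siRNA and the other Ecd siRNA, with 3 arrays in each, and total RNA was read on 1-colour Affymetrix arrays. The labels call the arrays of a group biological replicates. The siRNA sequence, dose and harvest time are not stated in the labels, and both groups came from 1 cell line. The comparison asks which transcripts differ when Ecd, encoded by ECD and related to ecdysoneless of Drosophila, is depleted.

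Histones package DNA into nucleosomes, each built around H2A, H2B, H3 and H4, with H1 on the linker DNA. The clustered genes supply new histones during S phase. Their transcripts normally end in a stem-loop bound by SLBP instead of a poly(A) tail, and NPAT drives their transcription, although several clustered genes can also give polyadenylated transcripts. Variant genes such as H2AZ1, H2AZ2, H3-3A and the macroH2A genes are polyadenylated and are not tied to S phase in that way, while H2AX yields both kinds of end. The labels do not say how the cDNA was primed. Where priming relies on the tail, a signal of a clustered gene cannot tell the total transcript from its polyadenylated share.

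The targeted transcript checked the labels. ECD had signals of 1076.6, 1011.4 and 1007.2 with control siRNA and of 588.9, 599.8 and 542.5 with Ecd siRNA, a log2 change of -0.82 (SE 0.10, limma adjusted p = 0.000366). Array medians lay between 128.7 and 147.6, 3'/5' ratios between 1.07 and 1.16 for ACTB and between 0.974 and 1.003 for GAPDH, and array correlations between 0.971 and 0.976 within a group and between 0.959 and 0.967 across groups. The basal epithelial markers KRT5, KRT14, CDH1 and LAMB3 had signals of 9955.0 to 23629.7, while PTPRC, CD3E and CD14 of leukocytes and 3 of 5 fibroblast markers lay under the brightness filter. Of the endothelial markers CDH5 and VWF were also under it. PECAM1 was above it, with means of 476.4 with control and 409.4 with Ecd siRNA, and was not called. Of the fibroblast markers COL1A1 rose (log2 change 0.52), and COL1A2 was at -0.17 and not called. The summed signal of all 5 was 1090.0 to 1243.0 with control and 1363.0 to 1524.2 with Ecd siRNA. Of the luminal markers KRT18 fell (-0.52), KRT8 and EPCAM were not called, and the sum was 9774.2 to 10224.0 against 8161.4 to 8653.5. CDH1 rose by 0.25, and the basal sums, 62603.2 to 69100.1 and 67205.4 to 72179.2, overlapped. The part of these markers in the histone values was not tested. In bulk RNA, fewer cells in a phase of the cycle and less RNA per cell cannot be told apart.

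Promoters of 4 members, picked after their values were seen, are shown as examples of both directions, H2BC12 and H2AC6 of the clustered genes that rose and H2AX and H2AZ1 of the variants that fell. The sequences are RefSeq's on GRCh38.p14, from 250 bases before the transcript start to 30 after it, and each is written in the direction of its gene. Capitals mark matches, on either strand, to the CCAAT box (CCAAT), the H2B octamer (ATTTGCAT), the TATA box (TATAAA), the cell cycle homology region (TTTGAA or TTCGAA) and the E2F site (TTTCGCGC, TTTGGCGC, TTTCCCGC or TTTGCCGC). H2BC12 lies at chr6:27146829-27147108 on the minus strand, H2AC6 at chr6:26123922-26124201 on the plus strand, H2AX at chr11:119095436-119095715 on the minus strand and H2AZ1 at chr4:99950246-99950525 on the minus strand.
H2BC12: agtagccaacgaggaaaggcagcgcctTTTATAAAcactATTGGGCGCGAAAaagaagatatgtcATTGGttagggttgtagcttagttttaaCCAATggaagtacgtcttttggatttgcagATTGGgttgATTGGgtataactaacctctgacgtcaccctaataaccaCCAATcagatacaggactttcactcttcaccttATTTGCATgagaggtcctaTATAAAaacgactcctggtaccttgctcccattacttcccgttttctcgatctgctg
H2AC6: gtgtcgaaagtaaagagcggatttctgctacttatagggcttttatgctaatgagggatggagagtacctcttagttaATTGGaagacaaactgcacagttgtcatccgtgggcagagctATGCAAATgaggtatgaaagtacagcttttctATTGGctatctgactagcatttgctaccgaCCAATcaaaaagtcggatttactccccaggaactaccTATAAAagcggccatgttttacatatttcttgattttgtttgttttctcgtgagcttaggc
H2AX: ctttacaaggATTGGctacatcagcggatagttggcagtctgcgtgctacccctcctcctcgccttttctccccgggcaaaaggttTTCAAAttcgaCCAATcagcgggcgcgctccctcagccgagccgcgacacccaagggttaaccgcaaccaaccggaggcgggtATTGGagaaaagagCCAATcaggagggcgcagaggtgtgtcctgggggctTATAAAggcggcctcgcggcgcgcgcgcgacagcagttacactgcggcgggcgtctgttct
H2AZ1: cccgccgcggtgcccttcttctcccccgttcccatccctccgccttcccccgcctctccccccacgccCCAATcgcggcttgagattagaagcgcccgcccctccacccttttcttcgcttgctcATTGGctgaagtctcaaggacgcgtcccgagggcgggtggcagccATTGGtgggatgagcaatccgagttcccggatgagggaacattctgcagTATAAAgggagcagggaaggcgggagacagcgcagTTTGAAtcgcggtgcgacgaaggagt
In H2BC12 the octamer began at position -46 and a TATA box at -27, counted from the start of the transcript. In H2AC6 the octamer lay at -130 and the TATA box at -31. Its start is 246 bases from that of H2BC4, which runs the other way, so their windows share that octamer. H2AX and H2AZ1 had a TATA box at -31 and CCAAT boxes on both strands, and they had no octamer and no E2F match in the window searched.

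A window from 250 bases before to 50 after the start was given for 49 of the 56 genes. The octamer was in 16 of 43 clustered windows (37.2%), against 1.8% of all 27305 promoter windows, and in 10 of 13 H2B windows (76.9%). CCAAT was in 37 of the 43 (86.0%, against 35.7% of all windows), TATAAA in 28 (65.1%, against 3264 of all 27305 windows), the E2F letters in 12 (27.9% against 3.33%) and the cell cycle homology letters in 14 (32.6% against 16.6%). Windows were counted whether or not their matches overlapped, as 2 opposite TATA matches do in H2BC12. Windows of neighbours that run opposite ways can share sites, so these counts are not of separate sites. The octamer was shared by H2AC6 and H2BC4, by H2AC14 and H2BC14, and by H2AC17 and H2BC17. Of the 10 genes with a higher call and a window, 6 held the octamer, 9 CCAAT, 7 TATAAA, 3 the cell cycle homology letters and 1 the E2F letters. H2AC8, which passed the brightness filter only through its Ecd siRNA arrays, is counted in each of these except the last. H2BC5 and H1-2, which also rose, had no octamer in the window. The windows of H2AX, H2AZ1 and H2AZ2 all held CCAAT and the cell cycle homology letters, and none held the octamer. A match describes the letters alone.

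After Ecd siRNA, 11 clustered histone probe sets rose and none fell, leaving out H2AC8, which passed the filter only through its Ecd siRNA arrays. Among the variants 8 probe sets fell, all of H2AX, H2AZ1 or H2AZ2, 1 of MACROH2A1 rose, and 8 did not pass the test. Of the 58 clustered probe sets, 26 of 22 genes passed the brightness filter, a mean signal of at least 90.2 over the 6 arrays. Among these 26, H2AC8 included, 12 probe sets of 11 genes rose, 14 did not pass the test and 0 fell in limma. The test was made on log2(signal + 16), at an adjusted p under 0.05 over 27027 probe sets. At an unadjusted p under 0.05, 14 were higher and 1 was lower. Across the array 17.0% of tested probe sets were called at the adjusted threshold, 8.37% higher and 8.68% lower. The median log2 change of the 26 was 0.55, with a range of -0.29 to 1.56, against 0.010 for all tested probe sets. Without H2AC8, 11 of 25 rose, the median was 0.53 and the highest change was 1.19. For 14 of the 26 the Ecd siRNA arrays lay wholly above the controls, for 1 wholly below, and for 11 the groups overlapped. The shares across the array were 17.2% above and 16.5% below. Log2 changes on this scale understate those of dim probe sets, and all values come from the comparison in which the family was noticed.

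**Figure D1:**
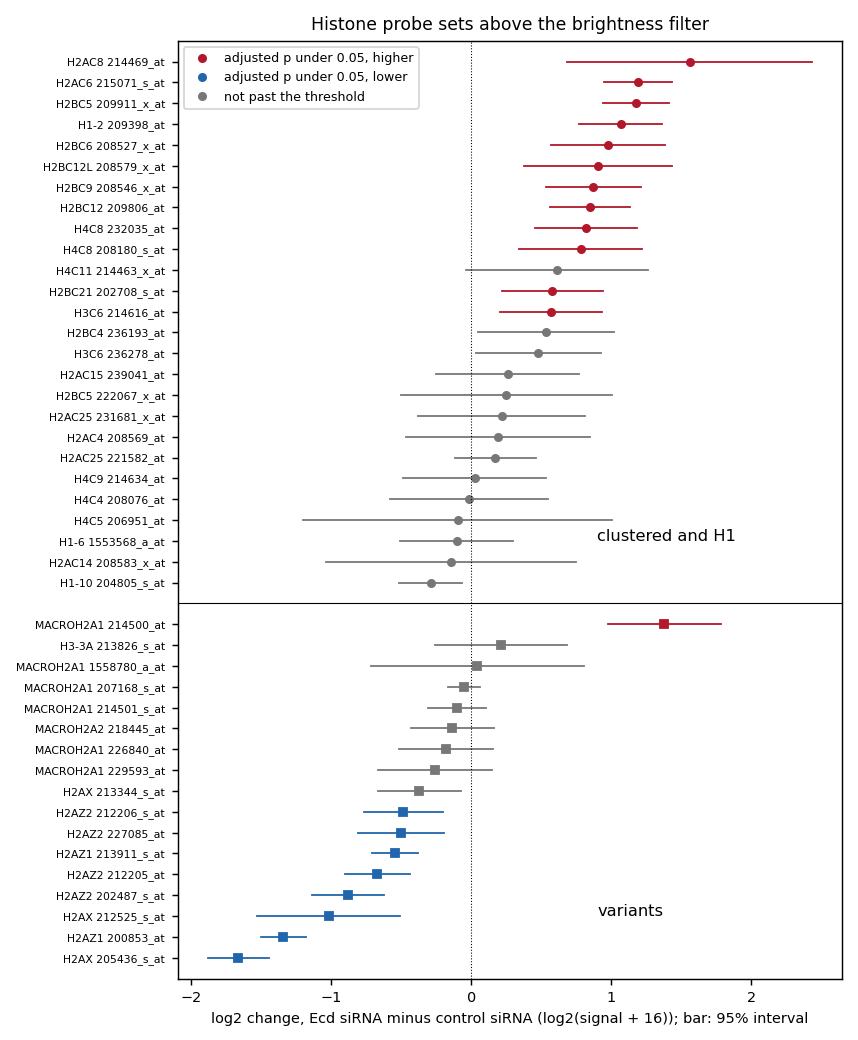
Log2 change (Ecd minus control siRNA, horizontal axis) of each tested clustered and variant histone probe set, with its 95% confidence interval from limma. The 12 clustered probe sets called higher lie between 0.57 and 1.56, the highest being H2AC8, which passed the filter only through its Ecd siRNA arrays. The 8 variant ones called lower lie between -1.67 and -0.49.

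The H2B genes held the most calls. Of 8 tested H2B probe sets, 6 rose, each from a different gene, and all 8 had a positive change, with a median of 0.86. Of all tested probe sets 8.37% rose. H2BC12 had signals of 4829.5, 3462.5 and 4935.1 with control siRNA and of 7945.6, 7248.2 and 8366.4 with Ecd siRNA, a 1.80-fold rise (log2 change 0.85, SE 0.13, limma adjusted p = 0.00148). Each Ecd siRNA array was above every control. H2BC5, read by probe set 209911_x_at, gave 1632.8, 1511.2 and 1462.4 against 4082.2, 3114.2 and 3336.1, a log2 change of 1.18 (SE 0.11, limma adjusted p = 6.46e-05). The groups were again far apart, and control arrays differed little. A different H2BC5 probe set, 222067_x_at, did not follow it. Its signals were 930.4, 955.2 and 731.8 with control and 690.7, 770.5 and 2063.6 with Ecd siRNA, and only Ecd siRNA replicate 3 stood above the controls (log2 change 0.25, limma adjusted p = 0.690).

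H2BC6 had signals of 488.2, 480.4 and 439.2 with control and of 917.8, 706.0 and 1264.7 with Ecd siRNA (log2 change 0.97, SE 0.18, limma adjusted p = 0.00524). Its Ecd siRNA arrays were spread more widely than its controls but did not reach down to them. H2BC9 went from 418.6, 333.7 and 294.7 to 582.5, 633.9 and 727.7 (log2 change 0.87, SE 0.15, limma adjusted p = 0.00350), without overlap. H2BC12L, a gene named as H2BC12-like, went from 1264.7, 979.5 and 685.9 to 1928.2, 1291.9 and 2281.8 (log2 change 0.90, limma adjusted p = 0.0273). Here the lowest Ecd siRNA array, 1291.9, was close to the highest control. H2BC21, an H2B gene of the chromosome 1 cluster, had signals of 476.7, 356.5 and 453.4 against 706.4, 520.1 and 723.4 (log2 change 0.58, limma adjusted p = 0.0356).

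The calls of H2BC12L and H2BC21 depended on single arrays and on the processing. With all arrays they were lost without the brightness filter (adjusted p of 0.0588 and 0.0646) and without the intensity trend (0.0988 and 0.0858), and that of H2BC21 also with arrays at a common median (0.0568). Without control siRNA replicate 2, 3, Ecd siRNA replicate 1 or 3 in turn, H2BC12L had adjusted p-values of 0.0577, 0.0820, 0.0706 and 0.0919, and over all its settings they ran from 0.0115 to 0.0988. H2BC21 lost its call without control siRNA replicates 1, 2 or 3 (0.0542, 0.111 and 0.0621) and without Ecd siRNA replicates 1 or 3 (0.0993 and 0.115), with a range of 0.0109 to 0.115 over its settings. H2BC4, the neighbour of H2AC6, had 311.2, 239.2 and 434.1 with control and 494.4, 375.1 and 554.4 with Ecd siRNA. Its groups overlapped, and its log2 change of 0.53 did not pass (limma adjusted p = 0.132). H2B coding sequences are nearly identical between these genes, and 4 of the 6 called H2B probe sets have names ending in _x_at, the platform's mark for probes that can bind several transcripts. A share of each such signal may therefore belong to a related gene, and the genes cannot be told apart there.

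**Figure D2:**
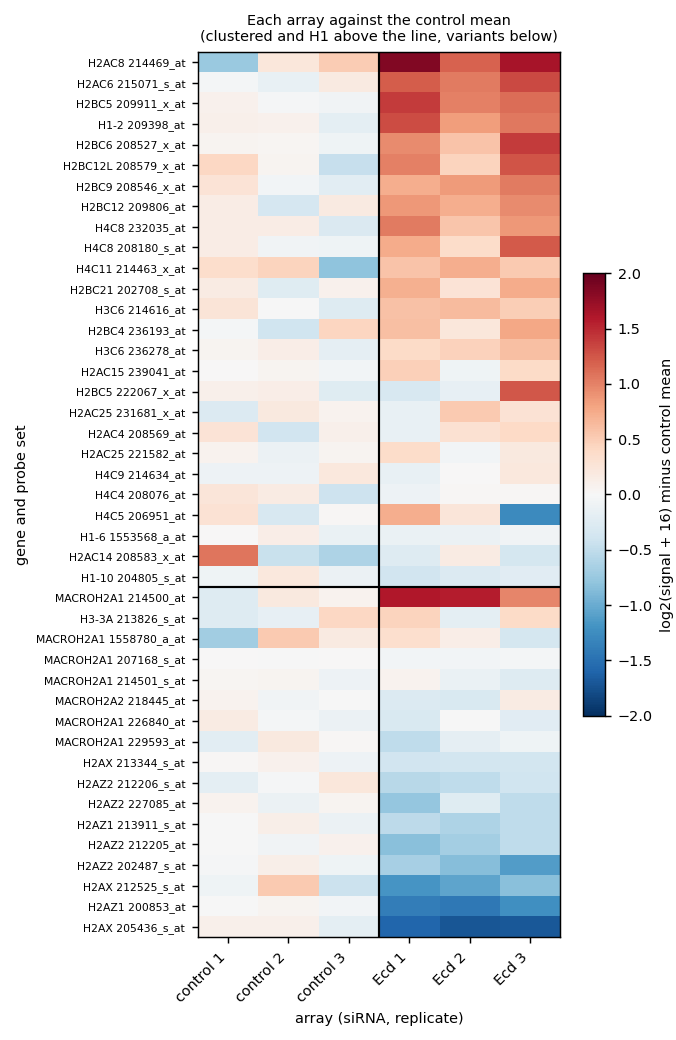
Log2 signal of histone probe sets on each array, as the difference from the mean of the 3 control arrays, for the tested clustered and variant probe sets. The median clustered probe set lay at 0.60, 0.40 and 0.67 on the 3 Ecd siRNA arrays.

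Among the H2A genes, 2 of 7 tested probe sets rose and 0 fell, also 0 at an unadjusted p under 0.05 in limma. The shares called across the array were 8.37% higher and 8.68% lower. H2AC6, an H2A gene of the chromosome 6 cluster, had signals of 1281.7, 1183.6 and 1497.4 with control siRNA and of 3053.5, 2714.8 and 3320.1 with Ecd siRNA. That is a 2.28-fold rise (log2 change 1.19, SE 0.11, limma adjusted p = 7.29e-05), and the lowest Ecd siRNA array was above the highest control. H2AC8 had a log2 change of 1.56, from dim signals of 19.9, 53.7 and 69.3 to 200.6, 119.1 and 170.4. Its control mean of 47.6 lay under the brightness filter, so it was tested only because its Ecd siRNA arrays were high, and its call (limma adjusted p = 0.0223) is not counted as support. Its size depended on the pseudocount and on the arrays, with 1.04 at a pseudocount of 64, 1.90 at 1 and 1.19 without control siRNA replicate 1. The adjusted p was 0.0774 without Ecd siRNA replicate 3, in a range of 0.0151 to 0.0774, and without Ecd siRNA replicate 1 it was under the filter. Without H2AC8, 11 of 25 clustered probe sets rose, with a median of 0.53 and a highest change of 1.19, and 1 of 6 in the H2A family. The other 5 H2A probe sets, of H2AC4, H2AC14, H2AC15 and H2AC25, had changes of -0.15 to 0.26, and each had overlapping groups.

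The H4 and H3 genes divided in a similar way. H4C8 was read by both of its probe sets as higher. Probe set 232035_at went from 503.3, 499.4 and 365.3 to 944.1, 669.7 and 834.2 (log2 change 0.82, SE 0.16, limma adjusted p = 0.00730), and 208180_s_at from 500.9, 424.6 and 422.6 to 760.0, 581.3 and 1073.6 (0.78, limma adjusted p = 0.0221). Neither showed overlap between the groups. The 208180_s_at call was lost without control siRNA replicate 2, 3 or Ecd siRNA replicate 3, with adjusted p-values of 0.0632, 0.0682 and 0.0507, and without the intensity trend (0.0746), in a range of 0.00643 to 0.0746. The remaining tested H4 probe sets, of H4C4, H4C5, H4C9 and H4C11, were not called. H4C11 had 313.0, 337.3 and 132.6 against 369.8, 413.3 and 356.1, with a low control siRNA replicate 3 (log2 change 0.61, limma adjusted p = 0.197).

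H3C6, which encodes an H3.1 protein, was the single H3 gene above the filter. Probe set 214616_at had signals of 284.1, 232.4 and 194.4 with control and of 360.2, 371.8 and 334.7 with Ecd siRNA (log2 change 0.57, limma adjusted p = 0.0405). The other one, 236278_at, gave 137.3, 145.4 and 114.7 against 176.3, 187.3 and 208.0 (log2 change 0.48, limma adjusted p = 0.139). Both had separate groups, and the first alone passed the threshold. Without control siRNA replicate 2 or 3, or Ecd siRNA replicate 1, 2 or 3, its adjusted p was 0.0948, 0.112, 0.0908, 0.118 and 0.0717, in a range of 0.0252 to 0.118 over its settings. With all arrays it was 0.0814 without the brightness filter, 0.0563 without the intensity trend and 0.0575 with array weights.

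Linker histone genes were mostly dim. Of 14 probe sets with an H1- symbol, 3 passed the filter and 1 of these rose, where 8.37% of all tested probe sets did so. H1-2, the gene of linker histone H1.2, had signals of 1050.6, 1038.0 and 844.0 with control and of 2427.0, 1758.4 and 2029.5 with Ecd siRNA, a 2.09-fold rise (log2 change 1.07, SE 0.13, limma adjusted p = 0.000503). H1-10, a linker histone gene outside the clusters, had 2279.2, 2796.7 and 2235.8 against 1858.5, 2012.6 and 2077.9. Its groups did not overlap and Ecd siRNA was the lower, yet the log2 change of -0.29 did not pass (limma adjusted p = 0.0812). H1-6, the testis linker histone gene, overlapped between groups (log2 change -0.11, limma adjusted p = 0.759). The brightest probe sets of H1-1, H1-3, H1-4, H1-5, H1-7, H1-8, H1-9P and H1-10-AS1 were under the filter. Without the antisense RNA, the pseudogenes and H1-10, but with H2BC12L and the dim H1-7 and H1-8, 25 clustered probe sets were tested. Of these, 12 rose, H2AC8 among them, and 0 fell in limma, also 0 at an unadjusted p under 0.05. Their median was 0.57.

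The 32 clustered probe sets under the filter did not show the shift, but their signals were low and changes of dim probe sets are understated on this scale. They therefore say little about their genes. Their mean signals lay between 5.6 and 89.4, their log2 changes between -0.63 and 0.82 with a median of 0.016, and 17 of the 32 were positive. In 1 of the 32, that of H3C8, the groups did not overlap. Among probe sets above the filter, 17.2% lay wholly above the controls and 16.5% wholly below, and the share among dim ones was not computed. H3C8 had dim signals of 13.2, 24.9 and 17.5 with control and 29.5, 35.5 and 40.3 with Ecd siRNA. Over all 58 clustered probe sets the median was 0.18.

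**Figure D3:**
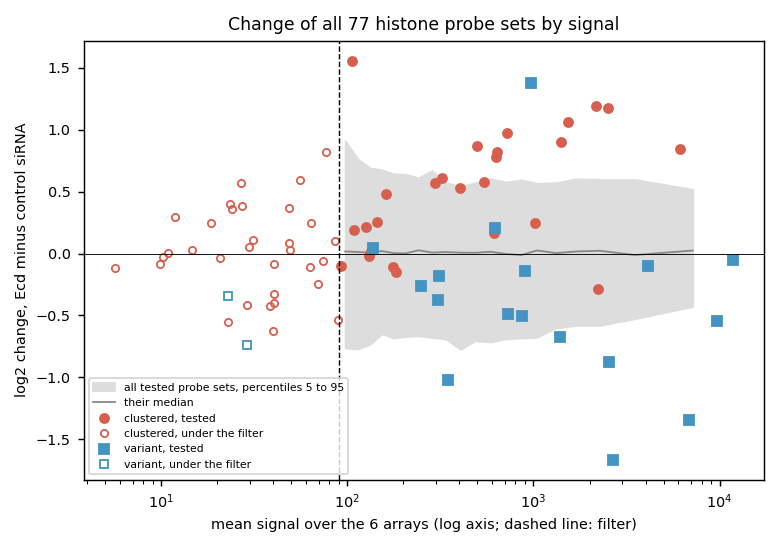
Log2 change (vertical axis) against mean signal over the 6 arrays (log axis) for all 77 histone probe sets, with the band from the 5th to the 95th percentile of all tested probe sets and the filter at 90.2 as a dashed line. The clustered probe sets with the higher calls are filled circles at signals above the filter, and the 32 clustered ones left of the line scatter around 0.

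The shift of the clustered genes was present on each Ecd siRNA array. Relative to the mean of the controls, the median of the 26 tested clustered probe sets was 0.60, 0.40 and 0.67 on Ecd siRNA replicates 1, 2 and 3, and 0.11, 0.012 and -0.086 on the control arrays. For the 12 that rose it was 0.98, 0.68 and 1.08 on the Ecd siRNA arrays, and 0.15, -0.016 and -0.086 on the controls. Those 12 were called from these same arrays, so their Ecd siRNA values are no further support. Ecd siRNA replicate 2 was the lowest of the 3 in each set. The ACTB 3'/5' ratio was 1.14, 1.07 and 1.16 on these arrays and 1.11, 1.07 and 1.10 on the controls, and its part in the histone values was not tested. Leaving out single arrays moved the count of clustered calls to between 7, without Ecd siRNA replicate 3, and 11. It was 8 without control siRNA replicate 2 and 8 without Ecd siRNA replicate 1. Of the 12 calls, 7 were kept in every setting that tested the probe set, those of H2BC12, H2BC5, H2BC6, H2BC9, H2AC6, H1-2 and H4C8 (232035_at). The fit without probe sets marked _s, _x or _a did not hold those of H2BC5, H2BC6, H2BC9 and H2AC6, and it made 5 clustered calls.

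Variant histone transcripts went the other way for 3 of the 6 genes. Of 19 variant probe sets, 17 passed the filter, of which 8 fell, 1 rose and 8 did not pass the test. Of all tested probe sets, 8.68% fell and 8.37% rose. The median log2 change of the 17 was -0.37. In 10 the Ecd siRNA arrays lay wholly below the controls, in 1 wholly above, and 6 overlapped, where 16.5% and 17.2% of the array did so. The 9 tested probe sets of H2AX, H2AZ1 and H2AZ2 were all below the controls without overlap, 8 of them fell and none rose (0 higher at an unadjusted p under 0.05 in limma), and their median was -0.67.

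H2AX encodes the variant that is phosphorylated beside DNA double-strand breaks. Its brightest probe set, 205436_s_at, had signals of 4372.4, 4364.6 and 3548.5 with control siRNA and of 1345.2, 1232.5 and 1247.2 with Ecd siRNA. The means were 4095 ± 473.4 and 1275 ± 61.3 (SD, n = 3 each). The log2 change was -1.67 (SE 0.10, limma adjusted p = 4.25e-06). This was the most negative value among the tested histone probe sets, and the groups were far apart. Probe set 212525_s_at fell from 428.1, 664.0 and 336.2 to 192.5, 212.8 and 250.8 (log2 change -1.02, limma adjusted p = 0.0128). In 213344_s_at the groups were 355.1, 368.6 and 322.5 against 262.1, 266.6 and 267.0, with no overlap but no call (log2 change -0.37, limma adjusted p = 0.0872). A further H2AX probe set was under the filter.

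H2AZ1 and H2AZ2 encode the H2A.Z proteins, which are placed at promoters and enhancers. H2AZ1 probe set 200853_at went from 9714.4, 10179.3 and 9444.3 to 3755.7, 3631.7 and 4161.2, a log2 change of -1.34 (SE 0.07, limma adjusted p = 2.46e-06). Probe set 213911_s_at of the same gene had 11481.6, 12491.1 and 10637.1 against 8044.2, 7480.5 and 8133.2 (log2 change -0.55, SE 0.07, limma adjusted p = 0.000757). Both fell without overlap, and their sizes differed. All 4 H2AZ2 probe sets fell. The brightest, 202487_s_at, had 3205.6, 3535.0 and 3102.0 with control and 2067.7, 1799.9 and 1497.1 with Ecd siRNA (log2 change -0.88, limma adjusted p = 0.000704). Probe set 212205_at had a change of -0.67, 227085_at of -0.51 and 212206_s_at of -0.49, each with separate groups.

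For the last 2 of these H2AZ2 probe sets the call depended on single arrays and on the processing. With all arrays, 227085_at lost it without the brightness filter (adjusted p of 0.0522) and without the intensity trend (0.0865), and 212206_s_at with arrays at a common median (0.0628) and without the trend (0.0656). Probe set 227085_at had adjusted p-values of 0.111, 0.0887, 0.0734 and 0.0743 without control siRNA replicate 1, 3 or Ecd siRNA replicate 1, 3 (range 0.0129 to 0.111 over its settings). Probe set 212206_s_at had 0.0589, 0.0799, 0.0641 and 0.0730 without control siRNA replicate 2, 3 or Ecd siRNA replicate 1, 2 (range 0.0179 to 0.0799). The other 6 lower calls, 2 each of H2AX, H2AZ1 and H2AZ2, were kept in every setting that tested the probe set. The fit without _s, _x or _a probe sets held 200853_at and 212205_at of these and made 3 lower variant calls. On the 3 Ecd siRNA arrays the median of the 9 probe sets of these genes was -0.77, -0.67 and -0.51 relative to the controls.

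**Figure D4:**
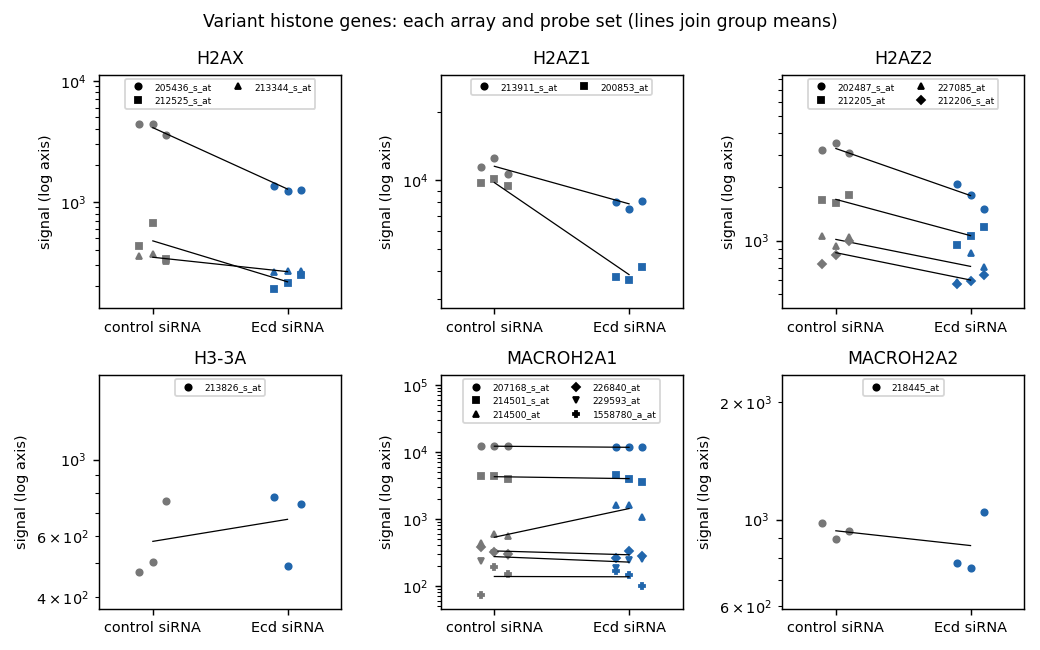
Signal (log axis) of every tested probe set of the 6 variant genes on the 3 control and the 3 Ecd siRNA arrays, with lines joining group means. H2AX, H2AZ1 and H2AZ2 lie lower with Ecd siRNA in each probe set, whereas for MACROH2A1 only 214500_at passed the test, with a change from a mean of 530.0 to 1419.

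MACROH2A1, which encodes the large variant macroH2A1, had probe sets that disagreed. Probe set 214500_at had signals of 435.8, 601.0 and 553.1 with control siRNA and of 1623.8, 1583.3 and 1048.7 with Ecd siRNA (log2 change 1.38, SE 0.18, limma adjusted p = 0.000657). The lowest Ecd siRNA array was above the highest control. The brightest probe set, 207168_s_at, had 12108.0, 12081.2 and 12108.6 against 11593.0, 11653.1 and 11716.5. Its groups did not overlap either, but the log2 change was -0.05 and did not pass (limma adjusted p = 0.554). The other 4 tested probe sets had changes of -0.26 to 0.04, and 1558780_a_at, at 0.04, was at -0.31 without control siRNA replicate 1. MACROH2A1 gives alternatively spliced transcripts, and which of them each probe set reads was not analysed here. No direction is given for the gene.

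The remaining variant genes showed no call. H3-3A, 1 of the 2 genes for H3.3, had 473.0, 504.0 and 759.6 with control and 780.4, 490.6 and 741.0 with Ecd siRNA (log2 change 0.21, limma adjusted p = 0.577). MACROH2A2 had 983.2, 893.9 and 932.7 against 775.0, 752.2 and 1048.6 (log2 change -0.14, limma adjusted p = 0.554). In both the groups overlapped. With 3 arrays a group, the interval of the H3-3A change ran from -0.26 to 0.68 and that of MACROH2A2 from -0.43 to 0.16.

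Factors that make and process histone transcripts showed mixed values. Of 16 genes written for this list, 15 were tested, of which 4 fell and 1 rose, while 10 missed the threshold. Their median was 0.02. At the adjusted threshold, 8.68% of all tested probe sets were called lower and 8.37% higher. At an unadjusted p under 0.05 in limma, 6 of the list were lower and 2 higher, and the array-wide share at that level was not computed. NPAT, the transcription coactivator of the clusters, had 676.0, 596.1 and 555.9 with control and 581.8, 604.7 and 665.9 with Ecd siRNA. Its groups overlapped (log2 change 0.02, limma adjusted p = 0.935), and its sign turned in 3 settings. SLBP, which binds the stem-loop, had 3410.0, 3239.6 and 3591.1 against 2245.6, 2196.5 and 2429.7, a fall with a log2 change of -0.57 (SE 0.08, limma adjusted p = 0.000816). ERI1, the exonuclease that trims histone mRNA ends, fell by 0.66 on the log2 scale, and CSTF2, a cleavage factor subunit, fell by 0.51. CASP8AP2, the FLASH protein of the histone locus body, fell by 0.41 (limma adjusted p = 0.0182). LSM11, part of the U7 particle that processes histone ends, rose by 0.46 (limma adjusted p = 0.0162).

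The CASP8AP2 and LSM11 calls depended on single arrays. Without control siRNA replicate 2, 3 or Ecd siRNA replicate 2, CASP8AP2 had adjusted p-values of 0.0583, 0.0621 and 0.0601 (range 0.0129 to 0.0621), and 0.0594 with arrays at a common median. LSM11 had 0.0578 without control siRNA replicate 2 and 0.0656 without Ecd siRNA replicate 2 (range 0.0114 to 0.0656).

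Histone chaperones, which carry histones to and from DNA, were lower more often than higher. Of 21 tested, 12 fell and 2 rose, while 7 missed the threshold, and the median was -0.38. Of all tested probe sets 8.68% fell and 8.37% rose. HJURP, the chaperone of the centromeric H3 variant, had 1379.6, 1324.3 and 1167.4 with control and 144.3, 237.2 and 241.2 with Ecd siRNA (log2 change -2.58, limma adjusted p = 1.38e-05). NASP, a chaperone of H1 and of H3 and H4, fell by 1.55, ASF1B, a chaperone of H3 and H4, fell by 1.27, and SSRP1, a subunit of FACT, fell by 0.71. The 2 that rose were CABIN1, a partner of HIRA (0.56), and ATRX, which places H3.3 with DAXX (0.45). ATRX had adjusted p-values of 0.0552 without control siRNA replicate 1 and 0.0521 without Ecd siRNA replicate 3 (range 0.00759 to 0.0665), against 0.0148 with all arrays. With all arrays it was 0.0588 at a common median and 0.0665 without the intensity trend.

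**Figure D5:**
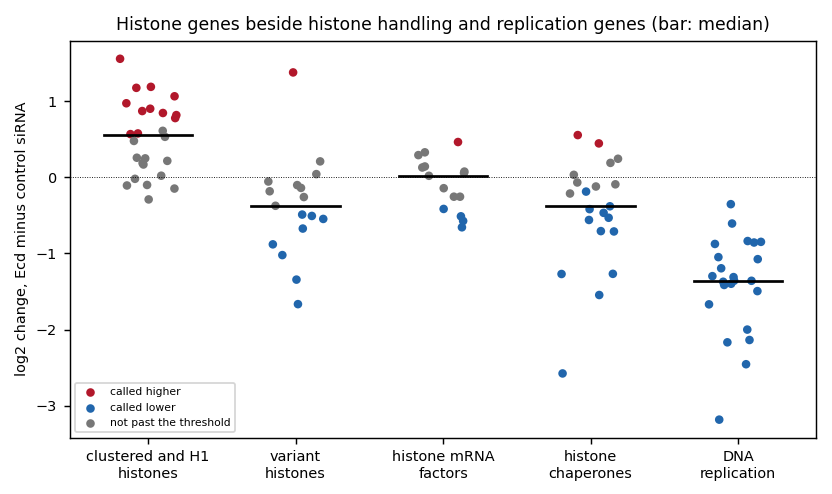
Log2 change of each tested gene of 3 lists (histone mRNA factors, histone chaperones, DNA replication) beside the tested clustered and variant histone probe sets, 1 point each, with a bar at the median. All 23 replication genes lie below 0, with a median of -1.36, and the clustered histone probe sets have a median of 0.55.

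Genes of DNA replication, which are active in S phase like the clustered histone genes, fell throughout their list. All 23 tested fell (0 higher at an unadjusted p under 0.05 in limma), with a median log2 change of -1.36. Across the array 8.68% of tested probe sets fell. RRM2, a subunit of ribonucleotide reductase, changed by -2.45, TYMS, the thymidylate synthase gene, by -1.40, and the helicase subunits GINS1 and GINS2 by -2.17 and -2.14. The clustered histone median of 0.55 thus stood beside a replication median of -1.36 on the same arrays. The first was taken over all tested clustered probe sets and the second over 1 probe set a gene. Read by the brightest probe set of each gene, the clustered median was 0.57, and with no brightness filter it was 0.18. The difference between the lists was not tested. Of the histone genes outside the symbol rule, CENPA, the centromeric H3 variant gene, went from 516.0, 601.0 and 518.3 to 254.7, 251.4 and 331.9 (log2 change -0.93, limma adjusted p = 0.00196). H2AJ, an H2A variant gene, had 2319.1, 2491.6 and 2290.3 against 2511.7, 1843.4 and 2165.2 and did not pass (log2 change -0.13, limma adjusted p = 0.486).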

How the data were processed

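RNA of 3 control and 3 Ecd siRNA cultures of 76N cells was read on 1 array each, and groups were taken from the sample titles. The deposited values are linear intensity signals, 1 for each probe set on each array, made by the authors with MAS5 per the submitters' processing notes; the labels state neither its version nor its target. The arrays share 1 trimmed mean, and such scaling hides a shift common to all transcripts. No detection calls were used here.

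Of 54675 probe sets, 41091 had 1 symbol in the platform annotation, 1801 had several, 11721 were unnamed and 62 were controls. Members and lists were chosen with earlier results of these data known. Signals were taken as log2(signal + 16). Single-symbol probe sets among the brightest 60% (mean signal of 90.2 or more) were compared with limma 3.58.1 under R 4.3.3 (lmFit, eBayes with an intensity trend, no covariates), with Benjamini-Hochberg adjustment over all 27027 and a threshold of 0.05. The fit was tested on simulated data. SDs are over 3 arrays and SEs are limma's; the number of arrays limits the precision, and p-values reflect how these 6 cultures varied.

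Genes were named by a rule: ECD, the brightest probe set of each variant and H1 gene, the 8 largest rises and falls with separate groups, the 6 brightest clustered probe sets, disagreeing probe sets, and up to 4 genes per list by adjusted p, with NPAT, SLBP and CASP8AP2. The other called, tested or dim histone genes, H3C8, CABIN1, ATRX and H2AJ were named after their values were seen. Each list gene was read by its brightest probe set. Motifs were searched in RefSeq promoter windows. The labels do not say whether replicate numbers pair the arrays, and the main fit did not pair them. Same-numbered arrays correlated at 0.0015, 0.084 and 0.12 in their deviations from the group means, and differently numbered ones at -0.10 to 0.020. These values do not settle whether the cultures were paired. The alternatives were quantile normalization, arrays at a common median, pseudocounts of 1 and 64, no filter, the brightest 40%, no _s, _x or _a probe sets, no trend, array weights, the replicate block, the brightest probe set of each gene, and each array left out. After the data were seen, fits without the antisense RNA, pseudogenes and H1-10, without H2AC8 and with several-symbol probe sets were added.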

Additional observations from a re-analysis of the deposited data

Results flagged for a closer look

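Of the probe sets annotated to several clustered histone genes, which no comparison above used, 6 rose with Ecd siRNA. A fit that took in all several-symbol probe sets, chosen after seeing the data, tested 28252 probe sets and called 4811 (17.0%). It tested 13 of 20 probe sets annotated to several clustered genes, of which 0 fell and 7 missed the threshold in limma. At an unadjusted p under 0.05, 9 were higher and 1 was lower. Their log2 changes ran from -0.63 to 1.25, and the median was 0.55. The 1 that was lower is annotated to 14 H4 symbols. It had 1252.9, 1201.4 and 785.3 with control and 802.4, 801.2 and 479.8 with Ecd siRNA. Its groups overlapped, and it was not called (log2 change -0.63, limma adjusted p = 0.0854). Its mean signal of 887.2 was above the 636.0 of the brightest single-symbol H4 probe set. The other H4 one tested was at 0.72 and not called. The 6 called higher were 3 annotated to H2B genes (0.93, 0.67 and 0.97), 2 annotated to H2A genes (1.21 and 1.25) and 1 annotated to H3 genes (0.54). They cannot be given to 1 gene, and they may share probes or transcripts with the single-symbol probe sets.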

How the results depend on the processing

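Over 16 settings at most for each of the 30 named and tested histone probe sets, 416 of 458 values kept their direction and their side of the threshold, 39 no longer passed it and 3 reversed. The 3 were those of the uncalled MACROH2A1 probe set 1558780_a_at, at -0.31 without control siRNA replicate 1, -0.11 without Ecd siRNA replicate 1 and -0.0041 without Ecd siRNA replicate 2, and at up to 0.30 without other arrays. NPAT reversed to -0.0011 with array weights, -0.041 without control siRNA replicate 3 and -0.033 without Ecd siRNA replicate 3, and reached 0.096 without another array. The clustered median was 0.18 with no filter, which adds dim probe sets, and 0.80 in the upper 40% by signal. Without _s, _x or _a probe sets, which leaves fewer to test, 2577 were called across the array in place of 4607, 5 clustered ones were higher, 3 variant ones were lower, and the variant median was -0.26. With the brightest probe set of each gene, 3 variant ones were lower and 0 higher. Leaving out each array in turn gave 3020 to 4006 calls across the array, 7 to 11 clustered calls higher, a clustered median of 0.39 to 0.66, 6 to 7 variant calls lower and a variant median of -0.38 to -0.33. With the replicate block, 13 clustered probe sets were called higher and 8 variant ones lower, and 4656 across the array. Common-median scaling moved the median of all tested probe sets from 0.010 to 0.0011. Low signals limit the 34 histone probe sets under the filter. Causes other than the number of probe sets or arrays were not tested.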

Other observations

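The 8 probe sets that carry the symbols of both H3.3 genes had log2 changes of -0.0037 to 0.25, with a median of 0.10. In the fit with several-symbol probe sets, chosen after seeing the data, 0 of the 8 passed the threshold in limma, and 1 was higher at an unadjusted p under 0.05.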
